A study of Mus musculus with 16 samples.

Results

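The genes examined here are 8 acyl-CoA thioesterases (Acot1, Acot2, Acot7, Acot8, Acot9, Acot11, Acot13 and Them4) and Dbi, which encodes the acyl-CoA binding protein. They were chosen by name, with earlier results of these data known, and are 9 of the 53764 genes in the deposited count table. All 9 passed the filter on low counts that left 15841 genes for testing. RNA came from the left ventricle of male C57BL/6J mice, 8 weeks old at the start and fed for 4 months, each library being from 1 animal. The groups were a high fat, high sucrose diet with ertugliflozin (HFHS ertugliflozin), the same diet without drug (HFHS untreated), a low fat control diet with ertugliflozin (CD ertugliflozin) and the control diet alone (CD untreated), with 4 libraries each and 16 in all. Ertugliflozin, an inhibitor of the kidney glucose transporter SGLT2, was mixed into the food at 0.5 mg/g. No group carried a genetic change, and the submitters picked the 4 animals of each group from 12 as representative, so the spread reported is that of the animals chosen.

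Acyl-CoA thioesterases split a fatty acyl-CoA into the free fatty acid and coenzyme A, the reverse of what acyl-CoA synthetases do, and different members work in the cytosol, the mitochondria and the peroxisomes. One branch of the family has an alpha/beta-hydrolase fold, which Acot1 and Acot2 share, and the other a hotdog fold, found in Acot7, Acot8, Acot9, Acot11, Acot13 and Them4. The acyl-CoA binding protein holds long-chain acyl-CoA esters in the cytosol and carries them between enzymes. In heart and liver, Acot1 and Acot2 are known as genes that respond to fasting and to activators of the nuclear receptor PPAR alpha.

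Acot1, a cytosolic long-chain thioesterase (ENSMUSG00000072949, chr12:84009490-84018371, plus strand, GRCm38), and Acot2, its counterpart in the mitochondrial matrix (ENSMUSG00000021226, chr12:83987861-83993873, plus strand), lie next to each other, with start sites 21.6 kb apart. Their aligned coding sequences were identical at 1180 of 1239 bases, or 95.2%, and the longest identical run was 273 bases. Acot2 has 123 coding bases, 41 codons, before the alignment begins. That start is shown because it is the coding stretch that sets Acot2 apart from Acot1. The stretch of 90 aligned bases with the most differences, 14, is shown for both genes with the differing bases in capitals, since reads from there can be told apart. Sequences are from the GENCODE M21 transcripts and read 5′ to 3′.
Acot2 coding bases 1 to 123, chr12:83987902-83988024: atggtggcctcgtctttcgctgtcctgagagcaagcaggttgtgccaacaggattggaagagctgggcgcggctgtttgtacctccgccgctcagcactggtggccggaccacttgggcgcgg
Acot2 coding bases 920 to 1009, chr12:83992638-83992727: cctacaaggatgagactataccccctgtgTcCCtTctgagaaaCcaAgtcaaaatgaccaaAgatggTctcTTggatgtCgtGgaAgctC
Acot1 coding bases 797 to 886, chr12:84016916-84017005: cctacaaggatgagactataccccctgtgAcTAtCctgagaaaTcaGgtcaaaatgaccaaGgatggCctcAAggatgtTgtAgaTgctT

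The likeness limits how well the reads of the pair can be assigned. Of all windows of 75 bases in the longest coding transcript, 26.4% of those in Acot1 and 21.2% of those in Acot2 also occur in a transcript of another gene, mostly the other member of the pair. At 50 bases the shares were 33.6% and 27.7%. Acot9 shared 7.15% of its windows of 75 bases with Acot10, and no other member shared any at that length. How the authors' counting treated reads that fit several places is not given in the sources used here, so the split between Acot1 and Acot2 is uncertain, while their sum is less so.

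Upstream of the start sites, the pair was far less alike, and the longest run shared by the windows of 250 bases was 9 bases. Those windows are shown because both genes moved with diet, as described next. They are from the RefSeq promoter table (GRCm38.p6, plus strand), with capitals at the closest match to AGGTCA repeated with 1 base of any kind between the copies, the direct repeat that PPAR receptors bind, searched on both strands.
Acot2 upstream, chr12:83987611-83987860: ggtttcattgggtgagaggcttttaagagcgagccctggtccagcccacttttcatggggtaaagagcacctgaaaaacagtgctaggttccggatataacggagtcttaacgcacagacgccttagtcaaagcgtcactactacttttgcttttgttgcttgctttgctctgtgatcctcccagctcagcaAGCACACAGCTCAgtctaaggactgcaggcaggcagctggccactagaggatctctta
Acot1 upstream, chr12:84009252-84009501: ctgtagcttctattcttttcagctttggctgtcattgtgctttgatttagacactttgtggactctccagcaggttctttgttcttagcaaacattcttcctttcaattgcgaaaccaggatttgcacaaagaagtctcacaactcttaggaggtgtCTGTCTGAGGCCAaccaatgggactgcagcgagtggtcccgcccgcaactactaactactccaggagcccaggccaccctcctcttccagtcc
The closest match held 9 of 12 letters for Acot2, and 24.6% of 32851 promoters in the table had a match at least as close. For Acot1 it held 8 of 12 letters, as close a match as 79.8% of promoters had. Of the 9 genes, 8 were found in the promoter table, and Acot13 was not among them.

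Library totals ran between 14637669 and 21452212 counts, and values below are counts-per-million values (CPM, scaled by edgeR's TMM factors). The tissue label was checked against 10 ventricular cardiomyocyte markers, which summed to 86200 to 104000 CPM per library. Some libraries stood apart in markers of neighbouring tissue. Valve and cartilage markers summed to 16.6 to 68.5 CPM in HFHS ertugliflozin, 13.5 to 43.2 CPM in HFHS untreated and 13.6 to 74.0 CPM in CD ertugliflozin libraries, against 45.4 to 259 CPM in CD untreated libraries, and the highest sum of atrial markers, 2310 CPM, was also in a CD untreated library. Liver markers summed to at most 2.34 CPM in all libraries but 1 of CD ertugliflozin, at 107 CPM. The calls of single members that rest on the CD untreated group are therefore given also with the valve and atrial scores as covariates. Each score is the mean log2 CPM of the tested markers, centred over the libraries. Valve scores were -1.76 to 0.0975 in HFHS untreated and 0.209 to 2.61 in CD untreated libraries, without overlap. Between the untreated groups this covariate goes with diet, so a call lost in that fit cannot be assigned to either.

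The HFHS diet went with more RNA of 3 of the 9 genes, with or without the drug: Acot1, Acot2 and Dbi. They were 33.3% of the members in each comparison, and no member was called lower. Of all tested genes, 3.69% were called between the ertugliflozin groups, 2.15% higher and 1.53% lower on HFHS, and 2.06% between the untreated groups, 1.45% higher and 0.619% lower. These shares move with single libraries. Between the ertugliflozin groups the 584 genes called became 287 to 389 on leaving out CD ertugliflozin replicate 2 or 3 or any HFHS ertugliflozin replicate. Between the untreated groups the 327 became 846 without HFHS untreated replicate 1, and 133 to 191 without HFHS untreated replicate 2, 3 or 4 or CD untreated replicate 1, 2 or 3. Tests were edgeR quasi-likelihood tests over all tested genes, with Benjamini-Hochberg adjusted p under 0.05 as the call. In bulk tissue, a change in the number of cells of a type and a change in RNA per cell cannot be told apart.

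Acot2 had 234, 244, 229 and 218 CPM in HFHS ertugliflozin hearts and 168, 213, 217 and 230 CPM in HFHS untreated hearts, against 139, 119, 115 and 129 CPM in CD ertugliflozin hearts and 113, 125, 113 and 124 CPM in CD untreated hearts. Every HFHS library was above every CD library. The log2 fold change, HFHS over CD, was 0.88 ± 0.08 (SE) with ertugliflozin (edgeR adjusted p = 1.15e-05) and 0.80 ± 0.08 without it (edgeR adjusted p = 5.8e-05), 4 libraries a group. With the valve and atrial covariates the untreated value was 0.73 (edgeR adjusted p = 0.0429). In both comparisons Acot2 ranked 2 by p-value among the 15841 tested genes.

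Acot1 had 59.0, 72.1, 52.3 and 49.3 CPM in HFHS ertugliflozin hearts and 30.8, 44.4, 53.6 and 60.8 CPM in HFHS untreated hearts, against 26.5, 26.3, 23.5 and 24.5 CPM in CD ertugliflozin hearts and 22.3, 26.3, 25.1 and 27.2 CPM in CD untreated hearts. The HFHS and CD ranges did not overlap here either, but the untreated HFHS animals spread widely, with replicate 1 only just above the CD libraries. Its log2 fold change was 1.21 ± 0.17 (SE) with ertugliflozin (edgeR adjusted p = 0.00128) and 0.91 ± 0.17 without it (edgeR adjusted p = 0.0161). Without HFHS untreated replicate 1 the untreated value was 1.06 (edgeR adjusted p = 0.000438). The call between the untreated groups ended without CD untreated replicate 1 (log2 0.85, edgeR adjusted p = 0.0502), without CD untreated replicates 2 and 3 (log2 0.93, adjusted p = 0.102), with only the 2 untreated groups in the edgeR fit (log2 0.90, adjusted p = 0.0885) and with the valve and atrial covariates (log2 0.94, adjusted p = 0.184).

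With the counts of the pair added together before the fit, which leaves the assignment between them aside, the sum rose by 0.95 with ertugliflozin (log2, edgeR adjusted p = 2.33e-05) and by 0.82 without it (edgeR adjusted p = 0.000295).

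Dbi, the acyl-CoA binding protein (ENSMUSG00000026385, chr1:120113280-120121078, minus strand), had 109, 129, 114 and 118 CPM in HFHS ertugliflozin hearts and 109, 102, 112 and 93.5 CPM in HFHS untreated hearts, against 82.5, 79.2, 76.5 and 86.8 CPM in CD ertugliflozin hearts and 81.8, 82.7, 74.2 and 76.8 CPM in CD untreated hearts. The lowest HFHS library was above the highest CD library. The log2 fold change was 0.53 ± 0.06 (SE) with ertugliflozin (edgeR adjusted p = 1.01e-04) and 0.40 ± 0.06 without it (edgeR adjusted p = 0.00376). With the valve and atrial covariates the untreated value was 0.32 (edgeR adjusted p = 0.184).

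On the authors' regularized log2 values the same differences came out smaller, and all 6 were still called by limma. They were 0.74 and 0.52 for Acot1, 0.60 and 0.54 for Acot2, and 0.36 and 0.26 for Dbi, with ertugliflozin and without it in that order.

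**Figure D1:**
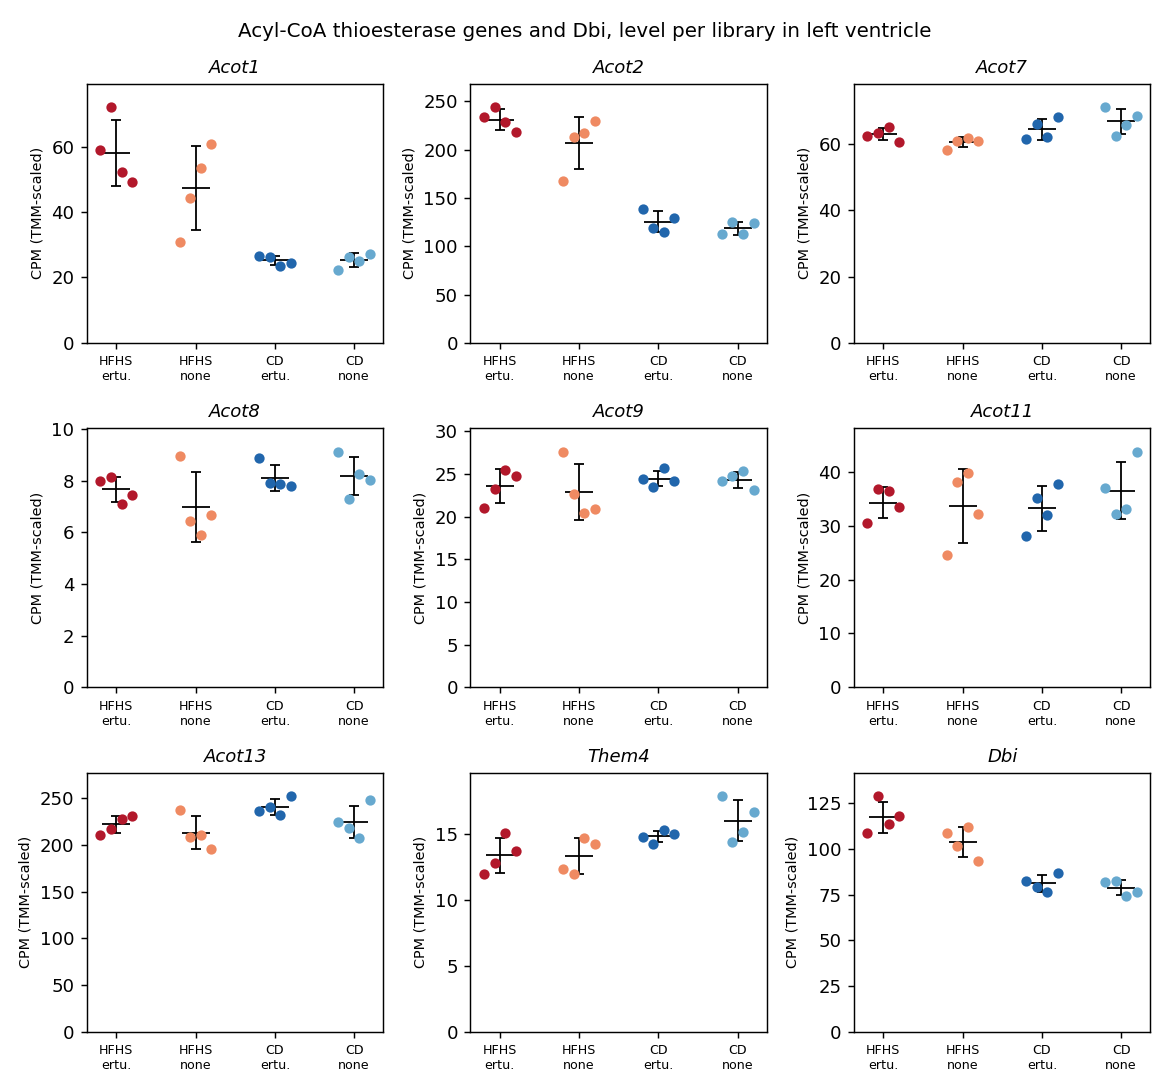
CPM of each of the 9 genes (y axes, linear from 0) in the 16 libraries by group (x axes), points being single libraries, horizontal lines group means and vertical bars the SD (ertu. for ertugliflozin, none for untreated). Acot1, Acot2 and Dbi show every HFHS library above every CD library, and the other 6 genes show ranges that overlap in most comparisons.

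The other 6 thioesterases gave no call in either diet comparison within a drug arm. Acot13 (ENSMUSG00000006717, chr13:24817948-24831540, minus strand), also called Them2 and found with mitochondria, averaged 222 ± 9.13 and 213 ± 17.7 CPM in HFHS ertugliflozin and HFHS untreated hearts, against 240 ± 8.47 and 224 ± 17.3 CPM in CD ertugliflozin and CD untreated hearts (SD, n = 4 each). With ertugliflozin its HFHS range, 211 to 231 CPM, lay just below its CD range, 232 to 252 CPM, with a difference of -0.11 ± 0.06 on the log2 scale (SE, edgeR adjusted p = 0.347). Of all tested genes, 6.38% had a HFHS range below the CD range in that comparison, and 6.79% had one above it, as Acot1, Acot2 and Dbi did.

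Acot7 (ENSMUSG00000028937, chr4:152178134-152271855, plus strand), a cytosolic long-chain enzyme best known from brain, averaged 62.9 ± 1.85 and 60.5 ± 1.47 CPM in HFHS ertugliflozin and HFHS untreated hearts, against 64.4 ± 3.08 and 66.9 ± 3.70 CPM in CD ertugliflozin and CD untreated hearts (SD, n = 4 each). Without drug its HFHS range, 58.3 to 61.7 CPM, was below its CD range, 62.4 to 71.1 CPM, with a difference of -0.14 ± 0.05 on the log2 scale (SE, edgeR adjusted p = 0.140). Between the untreated groups, 4.22% of tested genes had a HFHS range below the CD range and 4.11% one above it.

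Acot9 (ENSMUSG00000025287, chrX:155262443-155297654, plus strand), a mitochondrial enzyme, had 20.4 to 27.6 CPM over the 8 HFHS libraries, against 23.1 to 25.7 CPM over the 8 CD libraries. The HFHS libraries thus lay on both sides of the CD ones. Acot8, the peroxisomal enzyme (ENSMUSG00000017307, chr2:164792765-164804882, minus strand), had 5.90 to 8.97 CPM on HFHS, against 7.31 to 9.13 CPM on CD. Acot11 (ENSMUSG00000034853, chr4:106744555-106804998, minus strand), also called Them1 and known from brown fat, had 24.6 to 39.9 CPM on HFHS, against 28.1 to 43.8 CPM on CD. These 2 genes overlap a gene on the other strand, Acot8 with 246 exon bases shared with Snx21 and Acot11 with 1263 shared with Fam151a, and the strand setting of the counting is not given in the sources used here.

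Them4 (ENSMUSG00000028145, chr3:94310089-94332540, plus strand), a mitochondrial thioesterase also described as a binding partner of the kinase Akt, had 12.0 to 15.1 CPM over the HFHS libraries, against 14.3 to 17.9 CPM over the CD libraries. It was called only when the diet effect was averaged over the drug arms, an estimate with 8 libraries on each diet, where it fell by 0.21 ± 0.06 on the log2 scale (SE, edgeR adjusted p = 0.0405). That call ended on leaving out any 1 of 10 of the 16 libraries: HFHS ertugliflozin replicate 1, 2 or 4, HFHS untreated 1 or 2, CD ertugliflozin 1, 3 or 4, and CD untreated 1 or 4, with adjusted p-values up to 0.0944. It also ended with no filter on low counts (adjusted p = 0.0521), in limma-voom (adjusted p = 0.051) and with the valve and atrial covariates (log2 -0.15, edgeR adjusted p = 0.267), and the value was -0.10 on the authors' regularized log2 values.

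Averaged over the drug arms, the other calls were again Acot2 (log2 0.84 ± 0.06, SE), Acot1 (1.06 ± 0.12) and Dbi (0.47 ± 0.05), with edgeR adjusted p-values of 8.6e-08, 0.000105 and 3.82e-06. With the valve and atrial covariates all 3 stayed past the threshold, at 0.80, 1.03 and 0.42. In this comparison 11.6% of all tested genes were called, 6.59% higher and 5.01% lower, against 44.4% of the 9 members. The median log2 fold change of the members was -0.07, since 6 of the 9 had values below 0. Acot8 and Acot13 were not called with all libraries (edgeR adjusted p = 0.240 and 0.175). Without HFHS untreated replicate 1, these 2 genes passed at log2 -0.22 and -0.12 (edgeR adjusted p = 0.0342 and 0.0393). Acot8 also passed between the untreated groups, at -0.36 (edgeR adjusted p = 0.0450). Calls rose over the whole table in that fit. For diet averaged, 2530 of 16022 tested genes were called in place of 1837, and 1157 in place of 793 were lower. Between the untreated groups 846 were called in place of 327, and 308 in place of 98 were lower. In the library left out, Acot8, Acot9 and Acot13 were highest of their group, and Acot1, Acot2, Acot7 and Acot11 lowest.

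**Figure D2:**
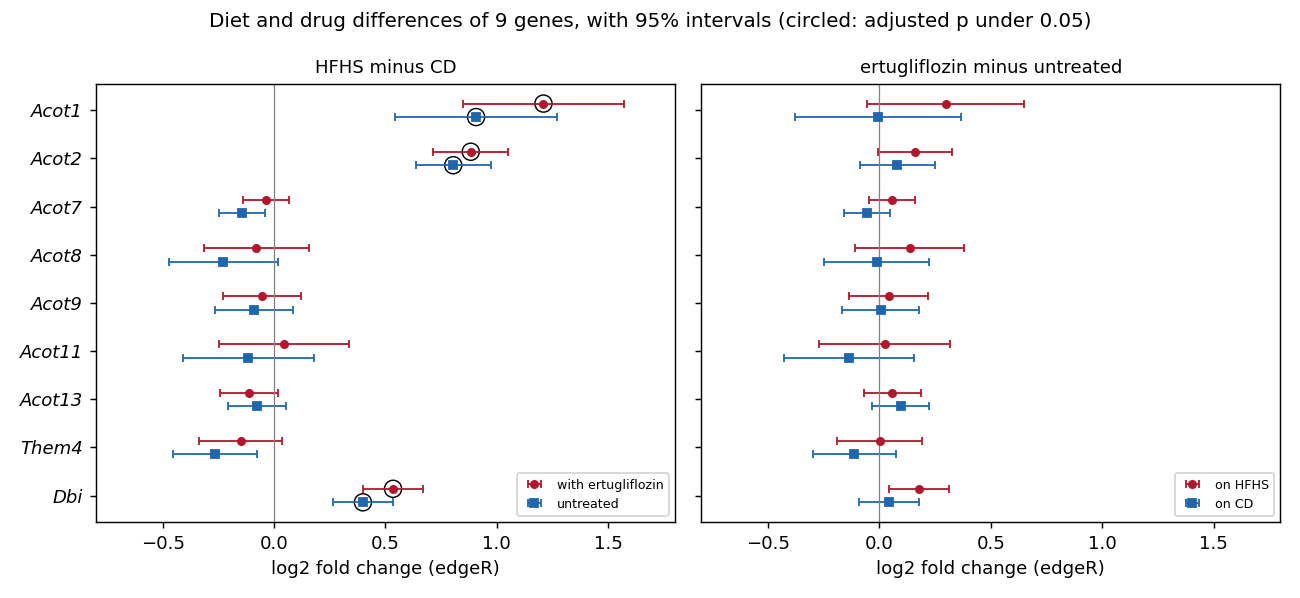
Log2 fold change of each gene (points) with its 95% confidence interval (bars) for HFHS over CD within each drug arm and for ertugliflozin over untreated on each diet, with circles round the points called at an adjusted p under 0.05. Acot1, Acot2 and Dbi lie at 0.40 to 1.21 in the diet comparisons, and no gene passed the test in the drug comparisons.

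Markers of cell types moved with diet beside these results. Between the ertugliflozin groups, 6 of 10 ventricular cardiomyocyte markers were called lower on HFHS (median log2 fold change -0.19), and their summed level was 89000 to 95000 CPM in HFHS and 93700 to 104000 CPM in CD libraries. Between the untreated groups, 1 of these markers was called lower, while 2 of 10 endothelial markers were called higher, with sums of 1650 to 1910 CPM in HFHS and 1460 to 1550 CPM in CD libraries. The adipocyte markers summed to 44.1 to 56.1 CPM and 36.7 to 44.1 CPM in the HFHS ertugliflozin and HFHS untreated groups, against 28.0 to 46.3 CPM and 33.7 to 56.2 CPM in the CD ertugliflozin and CD untreated groups. Of 5 adipocyte markers tested, Cidea was called higher on HFHS in both comparisons, while between the untreated groups the other 4 had values below 0 and the median was -3.07. Of 8 valve and cartilage markers tested, Cilp2 and Col11a2 were called lower between the untreated groups and none between the ertugliflozin groups. Of 9 fibroblast markers, 1 was called higher in each comparison, and no macrophage, atrial, erythroid or skeletal muscle marker was called in either. Uncalled markers could still share a direction. Between the ertugliflozin groups, 10 of 10 macrophage markers (median log2 -0.38), 6 of 6 erythroid (-0.34) and 9 of 10 atrial markers (-0.41) had values below 0. Between the untreated groups, 8 of 10 atrial (-0.82) and 6 of 10 macrophage markers (-0.02) did, while 6 of 6 erythroid markers were above 0 (0.13). No marker of these lists was at 0 in all libraries. The part of these shifts in the results for Acot1, Acot2 and Dbi was not tested, apart from the valve and atrial covariates above.

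Ertugliflozin moved none of the 9 genes past the threshold on either diet. On HFHS, 0.0% of all tested genes were called by edgeR, and DESeq2 called 0 as well. All 9 members had values at or above 0, and 50.2% of all tested genes were above 0. Not all of these signs were stable. Them4, at 0.002, was below 0 in 9 of 19 alternatives, Acot11 in 4 and Acot9 in 2. Of the members 1, Dbi, had an unadjusted p under 0.05, as did 637 genes in all. Dbi stood at a log2 fold change, ertugliflozin over untreated, of 0.18 (95% interval 0.04 to 0.31, unadjusted p = 0.0117, edgeR adjusted p = 1.0). Acot1 was at 0.30 (interval -0.05 to 0.65) and Acot2 at 0.16 (interval -0.01 to 0.33). The ranges of treated and untreated libraries overlapped for each of the 9 genes, as they did for all but 2.85% of tested genes.

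On the control diet, 0.0189% of all tested genes were called for the drug by edgeR, and DESeq2 called 10 genes. None was a member in either test, and no member had an unadjusted p under 0.05, against 978 genes in all. No member had ranges that did not overlap, against 3.07% of tested genes. Acot1 was at a log2 fold change of -0.00 (95% interval -0.38 to 0.37), Acot2 at 0.08 (interval -0.09 to 0.25) and Dbi at 0.04 (interval -0.09 to 0.18). Whether the diet effect differed with the drug was tested as the interaction, which called 0.0189% of all genes in edgeR and 19 genes in DESeq2. No member was among them. The interaction was 0.30 for Acot1 (interval -0.21 to 0.81), 0.08 for Acot2 (interval -0.16 to 0.32) and 0.14 for Dbi (interval -0.05 to 0.32), all in log2 units. Averaged over both diets the drug effect called no member, and 0.0% of all genes, in edgeR, and DESeq2 called 4 genes. In edgeR 882 genes in all had an unadjusted p under 0.05, and 2 of them were members. They were Dbi, at a log2 fold change of 0.11 (interval 0.016 to 0.205), and Acot2, at 0.12 (interval 0.002 to 0.239). With the valve and atrial covariates, the drug and interaction comparisons again called 0 members.

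Levels can be compared between genes only per length. As CPM per kb of all annotated exon bases, Acot13 was the most abundant member in every group, at 298 and 286 in HFHS ertugliflozin and HFHS untreated hearts, against 322 and 302 in CD ertugliflozin and CD untreated hearts. Acot2 came next on HFHS, with 105 and 94.3 CPM per kb on HFHS against 57.1 and 54.0 on CD, in the same order of drug arms. Dbi had 82.7 and 73.2 on HFHS against 57.1 and 55.5 on CD. The ranges of Acot2 and Dbi overlapped in every group but HFHS ertugliflozin. Within libraries, the order of these genes was mixed on CD. Acot2 was above Dbi in 1 of 4 CD ertugliflozin libraries, and Dbi above Acot2 in 3 of 4 CD untreated libraries. In HFHS ertugliflozin hearts Acot2 was above Dbi in 4 of 4 libraries. The same held in 4 of 4 HFHS untreated libraries, but in replicate 1 only by 76.5 against 76.4 CPM per kb. The order also depends on the length used, since per kb of the longest coding transcript Dbi had 240 and 212 on HFHS against 165 and 161 on CD, above Acot2.

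Acot7 followed at 28.5 to 31.5 CPM per kb in the 4 group means. Acot1 and Acot9 changed places with diet. Acot1 averaged 14.8 and 12.1 CPM per kb on HFHS, above Acot9 at 10.4 and 10.1, but 6.43 and 6.44 on CD, below Acot9 at 10.8 and 10.7, with ertugliflozin first and untreated second. The ranges of the pair overlapped only in HFHS untreated hearts. Acot11 stood at 5.49 to 6.04 CPM per kb in the group means, a level that Acot1 overlapped in both CD groups and Acot8 in HFHS untreated hearts. Acot8, at 3.50 to 4.10, and Them4, at 3.32 to 3.99, were the lowest, and overlapped each other in every group but CD ertugliflozin. Their order too depends on the length used, since per kb of the longest coding transcript Them4 was the higher in every group mean, for example at 8.31 against 7.04 for Acot8 in CD ertugliflozin hearts.

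**Figure D3:**
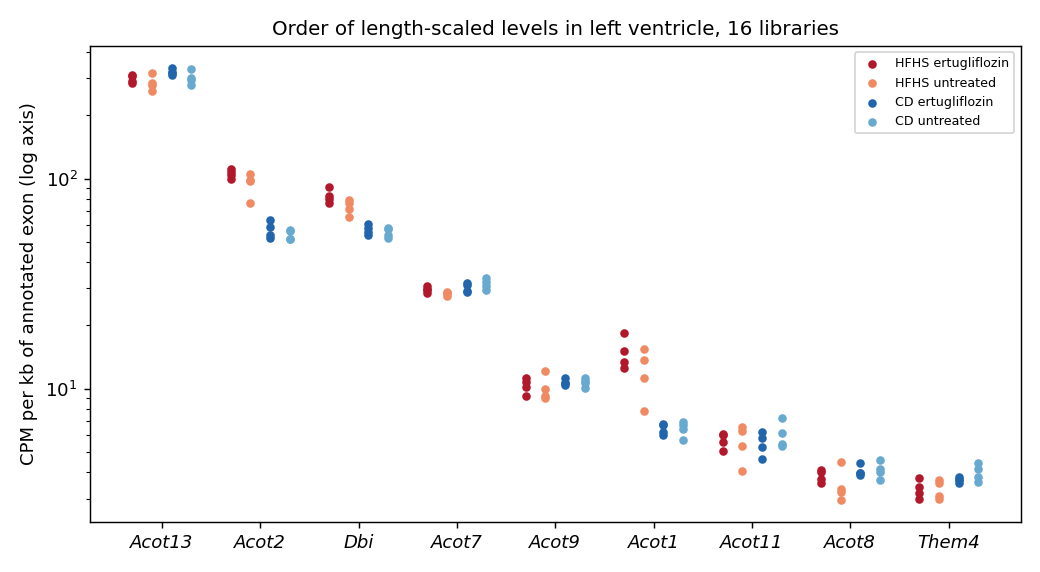
Level of each gene in CPM per kb of exon (log axis) in the 4 groups, points being libraries. Acot13 lies at the top near 300 in every group. Acot1 lies above Acot9 in 4 of 4 HFHS ertugliflozin and 3 of 4 HFHS untreated libraries, and below it in the CD groups.

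Summed over the 8 thioesterases, the level was 471 ± 10.1 and 444 ± 9.66 CPM per kb in HFHS ertugliflozin and HFHS untreated hearts, against 440 ± 14.7 and 419 ± 26.5 in CD ertugliflozin and CD untreated hearts (SD, n = 4 each). The makeup of that sum differed more than its size. Acot2 made up 22.4% and 21.3% of it on HFHS against 13.0% and 12.9% on CD, and Acot13 made up 63.3% and 64.5% on HFHS against 73.2% and 72.1% on CD. A share also falls when other genes in the sum rise, and Acot13 itself was not called (log2 -0.11 with ertugliflozin, -0.08 without). The sum and shares rest on all annotated exon bases. By that length Acot1 had 14.8 CPM per kb in HFHS ertugliflozin hearts, against 25.6 per kb of the longest coding transcript.

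The balance within the chromosome 12 pair was examined as the share of Acot1 in the counts of Acot1 plus Acot2. It was 20.1, 22.8, 18.6 and 18.4% in HFHS ertugliflozin libraries and 15.5, 17.2, 19.8 and 20.9% in HFHS untreated libraries, against 16.0, 18.1, 16.9 and 16.0% in CD ertugliflozin libraries and 16.5, 17.4, 18.2 and 18.0% in CD untreated libraries. With ertugliflozin every HFHS library was above every CD library, by 3.23 points in the means, and without it the HFHS libraries fell on both sides of the CD ones. The exact two-sided permutation p with ertugliflozin was 0.0286, the smallest that 4 against 4 libraries allow, and 0.124 after adjustment over the 6 comparisons made. Between the untreated groups the difference was 0.813 points (exact permutation p = 0.571, adjusted p = 0.641). None of the 6 comparisons passed after adjustment.

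Across libraries, with each gene's group mean taken off, Acot1 and Acot2 varied together (Pearson r = 0.846, permutation p = 0.00034, adjusted p = 0.0122; Spearman rho = 0.850, permutation p = 0.00017, adjusted p = 0.00612, 16 libraries, 36 pairs of members examined). Leaving out the 2 libraries farthest from the median of Acot1 gave r = 0.630. The share of sequence windows common to both genes is given above, and its part in this correlation was not tested. No other pair passed after adjustment, by r or rho.

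**Figure D4:**
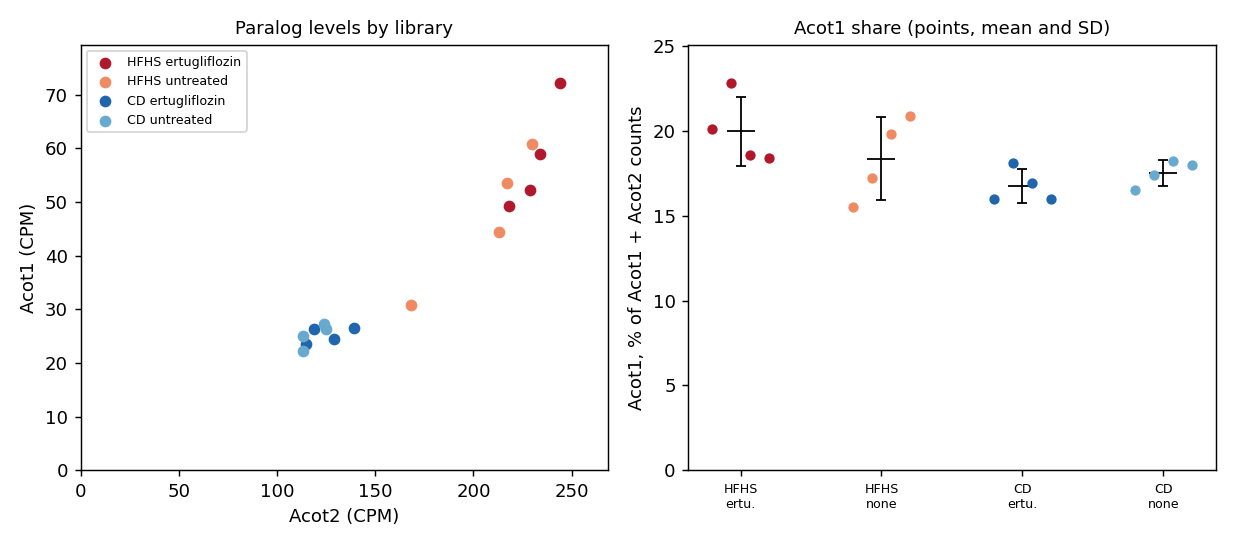
Left, CPM of Acot1 against CPM of Acot2, 1 point a library, coloured by group. Right, Acot1 as a percentage of Acot1 plus Acot2 counts by group (points libraries, lines mean and SD), with the HFHS ertugliflozin libraries at 18.4 to 22.8% and the CD ertugliflozin libraries at 16.0 to 18.1%.

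Acot1 and Acot2 belong to a cluster of 6 thioesterase genes on chromosome 12, and the other 4, whose products are peroxisomal where known, were counted too. Acot4, which hydrolyses succinyl-CoA and lies 50.5 kb past the Acot2 start, averaged 5.22 ± 1.04 and 4.68 ± 0.862 CPM in HFHS ertugliflozin and HFHS untreated hearts, against 3.01 ± 0.796 and 3.00 ± 0.396 CPM in CD ertugliflozin and CD untreated hearts (SD, n = 4 each). It rose on HFHS with ertugliflozin (log2 0.79 ± 0.19, SE, edgeR adjusted p = 0.0238) and stood at 0.65 ± 0.19 without it (adjusted p = 0.0885). Acot3, at 64.3 kb, averaged 2.34 ± 0.281 and 1.51 ± 0.431 CPM on HFHS, against 1.08 ± 0.372 and 1.06 ± 0.189 CPM on CD, in the same order of arms and with the same n.

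Acot3 rose with ertugliflozin (log2 1.11 ± 0.24, SE, edgeR adjusted p = 0.0115) and stood at 0.53 ± 0.25 without it (adjusted p = 0.303). Acot6, at 113 kb, had a diet effect averaged over the drug arms of -0.04 (edgeR adjusted p = 0.842). Acot5, at 81.5 kb, had 0 counts in all 16 libraries, where 3 counts, the limit that a count of 0 allows, would be 0.14 to 0.205 CPM. Of the 5 cluster genes tested, 4 were called higher on HFHS with ertugliflozin (Acot1 to Acot4), where 2.15% of all tested genes were, and 2 without it (Acot1 and Acot2), where 1.45% were. The calls of Acot1 and Acot2 are those given above. The cluster was taken up around that pair, with earlier results of these data known, so these counts are no test of the cluster. The coding sequences of Acot3 and Acot4 matched that of Acot2 at 84.5% and 73.4% of aligned bases.

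**Figure D5:**
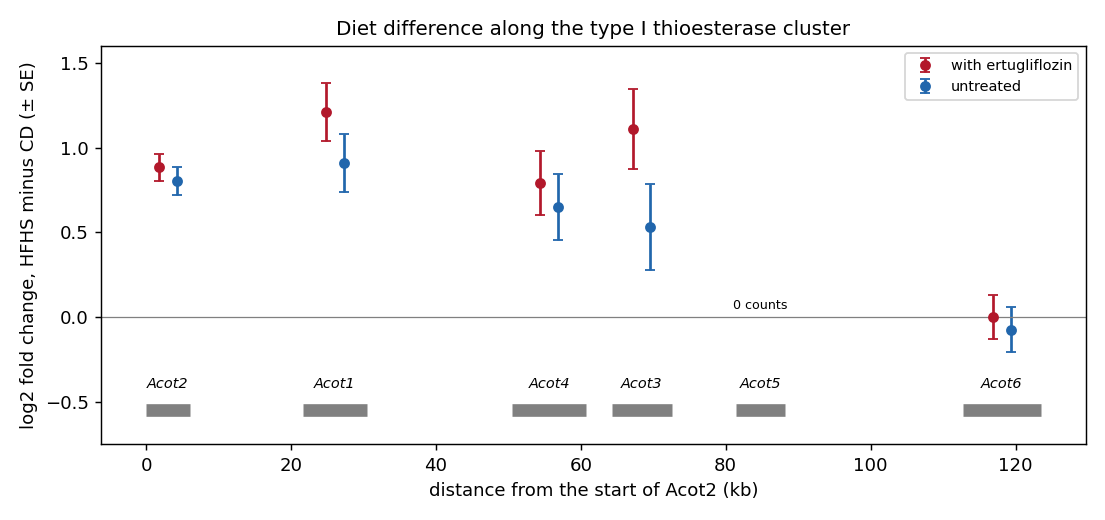
The 6 thioesterase genes of the chromosome 12 cluster (grey bars, drawn to scale) by distance from the Acot2 start in kb (x axis), with the log2 fold change of HFHS over CD (points, y axis) and its standard error (bars), with ertugliflozin and without it. Acot2, Acot1, Acot4 and Acot3 lie at 0.53 to 1.21, Acot6 lies near 0, and Acot5 has no value because it had 0 counts.

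Related genes were followed as lists chosen with earlier results known. Of 13 other acyl-CoA thioesterases, 6 passed the filter on low counts; none was called between the untreated groups, and Acot3 and Acot4 were called higher between the ertugliflozin groups. Of 9 tested acyl-CoA and fatty acid binding proteins, 1 was called higher without the drug and 2 with it, none lower, at median log2 fold changes of 0.10 and 0.09. Of all tested genes, 1.45% were called higher on HFHS without the drug and 2.15% with it. The heart fatty acid binding protein Fabp3 rose by 0.38 ± 0.05 with ertugliflozin (log2, SE, edgeR adjusted p = 0.000219) and by 0.28 ± 0.05 without it (adjusted p = 0.00689). Eci2, an enoyl-CoA isomerase with an acyl-CoA binding domain, rose by 0.23 ± 0.05 with it (adjusted p = 0.0240).

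Acyl-CoA synthetases, which make the substrate of the thioesterases, gave 3 higher and 1 lower call of 16 tested with ertugliflozin, and 1 higher call without it. Their median log2 fold changes were -0.01 with the drug and 0.01 without it. Of all tested genes, 2.15% were called higher and 1.53% lower with the drug, and 1.45% higher and 0.619% lower without it. Acsf2 rose by 0.57 ± 0.08 with the drug (log2, SE, edgeR adjusted p = 0.000295) and by 0.32 ± 0.08 without it (adjusted p = 0.0373). The fatty acid transport protein Slc27a1 and the main long-chain synthetase of heart, Acsl1, rose by 0.45 ± 0.08 and 0.24 ± 0.06 with the drug (adjusted p = 0.00449 and 0.0362). Aasdh, counted in this list, fell by 0.28 ± 0.08 with the drug (adjusted p = 0.0483). Neither list gave a call for the drug within a diet.

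The genes whose levels followed Acot2 most closely over the 16 libraries, by Pearson correlation of log2 CPM and as a description only, were the transcription factor gene Nfe2l1 (0.980), the membrane repair gene Dysf (0.974), the small GTPase gene Rab11b (0.958), the lipid droplet protein gene Plin5 (0.955) and the acyltransferase gene Agpat3 (0.954). For Acot1 they were Agpat3 (0.973), the lipid flippase gene Atp11b (0.967), Nfe2l1 (0.965), Plin5 (0.959) and Rab11b-ps2 (0.957), the last a pseudogene of Rab11b. All libraries share the split by diet, which these values include. Each of these 7 genes was called higher on HFHS averaged over the drug arms, at log2 0.17 to 0.43, smaller than the 0.84 of Acot2.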

How the data were processed

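Left ventricular RNA was poly(A)-selected and made into strand-marked libraries, per the labels' protocols. The authors deposited whole-number read counts for 53764 Ensembl genes in 16 libraries, and a table of regularized log2 values of the same libraries, which the authors made from those counts. The submitters' processing notes name the mm10 build and the programs DESeq2 1.22.1, FastQC 0.11.7, STAR 2.6.0c and, from Subread 1.6.2, featureCounts. Which annotation, strand setting and rule for reads that fit several genes applied is not given in the sources used here.

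Symbols, lengths and transcripts came from GENCODE M21 (GRCm38), which matched 53669 IDs. The counts were tested with edgeR 4.0.16 in R 4.3.3 (TMM scaling, filterByExpr, robust quasi-likelihood fit over all 4 groups, 15841 genes, common biological coefficient of variation 0.0947), with Benjamini-Hochberg adjustment over all tested genes and a threshold of 0.05. Intervals at 95% used the test's own degrees of freedom. The steps were tested on simulated data. Shares of Acot1 were compared by exact permutation. Correlations of deviations used 100000 permutations within groups. Limma 3.58.1 and DESeq2 1.42.0 were alternatives, with other scalings and filters, covariates, a replicate block and each library left out. Log2 CPM used a prior count of 2.

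Library pairs within a group differed beyond counting noise (chi-square per degree of freedom 3.24 to 16.3 over 24 pairs), so each was counted as 1 sample. Totals were 14637669 to 21452212 counts per library, and counting error was largest for Acot8, the member with the fewest counts per library total. The labels give no batch. The members and lists were chosen with earlier results of these data known. All 9 members are named; from the related lists the text names those past the threshold, up to 4 by smallest adjusted p, the acyl-CoA thioesterases at or near 0 counts, and the chromosome 12 neighbours; for Acot1, Acot2 and Acot11 it names the 5 tested genes with the highest correlation and a mean of at least 1 CPM, model genes left out, and 1 of those for Acot11 is not reported here.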

Additional observations from a re-analysis of the deposited data

Results flagged for a closer look

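Acot8, the peroxisomal thioesterase, had 1 CD ertugliflozin library apart from the other 3, at 8.87 CPM against 7.79, 7.88 and 7.92 CPM. The gap was large for the range of 4 values. It was the 1 such case among 40 sets of 4 values examined, and chance gives about 1 in 20.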

How the results depend on the processing

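The diet calls of Acot2 held under every alternative run, at log2 0.54 to 0.89 between the untreated groups and 0.60 to 0.95 between the ertugliflozin groups. With the valve and atrial scores as covariates, 1 member (Acot2) was called between the untreated groups in place of 3, and 4 genes in all in place of 327. The valve score goes with diet between the untreated groups, as given above, so that fit cannot separate them. In all, 97 genes were called there without CD untreated replicates 2 and 3, 136 with only those groups fitted, 607 by DESeq2 and 743 by limma-voom, DESeq2 called 906 in place of 584 between the ertugliflozin groups, and with the covariates 903 in place of 1837 were called for diet averaged. Between the ertugliflozin groups 2 or 3 members were called under each alternative, 2 only where Acot1 and Acot2 were summed to 1 gene. The drug and interaction comparisons gave 0 members under each. Of 1431 single-gene values under alternatives, 18 lost a call, 3 gained one, and 63 changed sign with neither value called, the largest of these being 0.0985 in size. Leaving out 1 library, the difference in Acot1 share ran, in points, from -0.041 to 1.77 (HFHS untreated against CD untreated), 2.28 to 3.76 (HFHS ertugliflozin against CD ertugliflozin), -1.24 to -0.509 (drug on CD), 0.687 to 2.5 (drug on HFHS), 1.55 to 2.5 (diet averaged) and -0.0452 to 0.859 (drug averaged). The averaged diet value passed without HFHS untreated replicate 1, at 2.5 points (adjusted exact permutation p = 0.0294). Replicate numbers were not used to pair the samples in the main fit. Same-numbered libraries correlated at -0.24 to 0.313, with 6 of 24 pairs over 0.1. Their median was 0.056, against -0.0226 for libraries of other numbers, and 8 of 16 libraries correlated best with their own number. These values do not settle whether the numbers pair the samples. With the replicate block, 3 members were called in each diet comparison, 4 averaged and 0 for the drug, and 329 and 550 genes in all on diet. Depth limits most the thioesterases near 0 counts.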

Other observations

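Another list held mostly thioesterases of proteins and lysophospholipids, such as the palmitoyl-protein enzymes, and also Fasn, Olah and Esd. Of its 12 genes, 11 were tested. None was called by edgeR in any diet or drug comparison within an arm, and the median log2 fold change, HFHS over CD, was -0.00 with ertugliflozin and -0.04 without it.

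Acot11 varied more between animals of a group than most members, with an SD of 6.93 CPM around 33.7 CPM in HFHS untreated hearts and 5.24 around 36.6 CPM in CD untreated hearts. The genes that followed it most closely over the 16 libraries, by Pearson correlation of log2 CPM and as a description only, were Dgat2 (0.867), which encodes an enzyme of the last step of triglyceride synthesis, Dexi (0.857), Setd3 (0.830) and Kdm4b, just below Setd3. None of these 4 was called for diet averaged over the drug arms, with log2 values of -0.01 to 0.01 (edgeR adjusted p from 0.909 to 0.966).

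Acyl-CoA thioesterases known from other tissues were near 0 in these hearts, with at most 4 counts of Acot12, a liver enzyme, in any library, 0 or 1 of Them5, 2 to 8 of Them7 and 0 to 10 of Baat. The highest counts of Acot12 and Baat, 4 and 10, were in the CD ertugliflozin group, which holds the library with liver markers at 107 CPM. In the other groups they had at most 2 and 3. Acnat1 and Acnat2 had 0 counts in all libraries.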
